A study of Mus musculus with 27 samples.

Results

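Bryostatin alone was compared with no treatment in mixed glia of the mouse cortex. The comparison rests on 6 of the 27 RNA sequencing libraries of the study, all from experiment 2: 3 of glia given bryostatin at 50 nM for 24 h and 3 of glia left untreated, and every gene with enough counts was described. The glia came from C57BL/6 pups 3 to 6 days old and were used at 14 days in vitro, in medium with 10% serum. The same experiment had 3 libraries of glia given interleukin 4 (IL-4, 20 ng/mL) and 3 of IL-4 with bryostatin, which entered the same fit. Experiment 1 gave bryostatin on top of lipopolysaccharide (LPS, 100 ng/mL), alone or with interferon gamma (IFN-gamma, 20 ng/mL). Nothing in the labels ties a replicate to a culture or pup of its own, so p-values reflect only how these libraries vary, and that variation may be technical. RNA came from whole wells, so more cells of a type and more RNA per cell cannot be told apart.

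Bryostatin-1, a large ring-shaped lactone first found in a marine bryozoan, docks on protein kinase C where the lipid messenger diacylglycerol does, at its C1 domain. In many cells diacylglycerol mimics first activate the kinase and, over hours, lead to the breakdown of some of its isoforms. Active protein kinase C signals through ERK, NF-kB and the transcription factor AP-1, whose Fos and Jun subunits read the DNA motif TGACTCA. Mixed glia hold mostly astrocytes and microglia. Astrocytes buffer potassium and glutamate and supply cholesterol, and microglia are the resident macrophages of the brain.

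The 6 libraries held 17323706 to 18723682 counts, so that 3 counts equal 0.16 to 0.173 CPM (counts-per-million). A pair of them stood apart. The library labelled untreated replicate 1 had a Pearson r across genes of 0.958 and 0.949 with the other untreated libraries, against 0.99 between those 2 (log2 CPM, across genes, which are not independent replicates). Pdgfra, the growth factor receptor of oligodendrocyte precursors, stood at 96.2 CPM in it and at 5.4 and 5.41 CPM in replicates 2 and 3. Summed over 16 marker genes, ependymal and choroid plexus transcripts reached 1010 CPM there against 333 and 331 CPM, and 30 astrocyte markers summed to 49100 CPM against 31400 and 29300 CPM. Of the genes at 5 CPM or more in it, 133 were over 5-fold higher than in both other untreated libraries, and 5 of these 133 were called as changed by bryostatin. The label was kept as given, and every call below was recomputed without this library.

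For bryostatin replicate 2 the r values with the remaining bryostatin libraries were 0.971 and 0.97, against 0.991 between those. It read short genes high and long genes low. Deviations were taken from the mean of the 6 libraries compared, so each slope is relative to the others. In the group of genes with the shortest transcripts, of 10 groups of equal size (median 974 bases), its median deviation was 0.29 on the log2 scale. In the longest group (median 12214 bases) it was -0.35. Untreated replicate 1 had the same slope, from 0.29 to -0.41. Bryostatin replicates 1 and 3 sloped the other way, from -0.17 and -0.18 to 0.3 in both. With 1 library of this slope in each group, the median log2 fold change of all genes ran from -0.04 in the shortest group to 0.18 in the longest. Without bryostatin replicate 2 it ran from -0.22 to 0.35. Leaving out untreated replicate 1 instead keeps bryostatin replicate 2, so that fit is not balanced by length either, and its medians by length were not computed. Between the fits with and without untreated replicate 1 the median log2 fold change of 49 cytosolic ribosomal protein genes went from 0.03 to 0.26. For 36 nuclear genes of oxidative phosphorylation it went from -0.04 to 0.11.

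**Figure D1:**
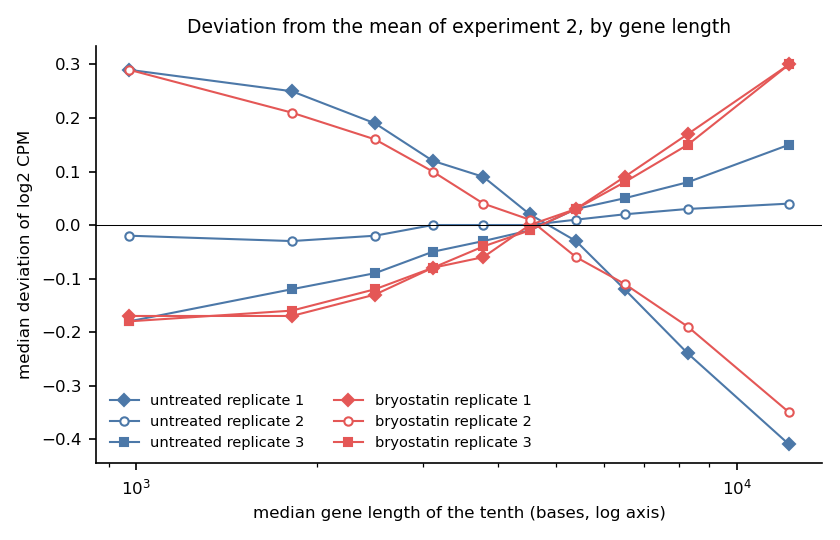
Median deviation of log2 CPM from the mean of the 6 experiment 2 libraries compared (y axis) against the median gene length of each of 10 equal groups of the tested genes (x axis, log scale), 1 line a library. Untreated replicate 1 and bryostatin replicate 2 fall with length, from 0.29 to -0.41 and from 0.29 to -0.35, while untreated replicate 2 is nearly flat and the other 3 libraries rise.

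Bryostatin changed the level of 565 genes of 15604 tested (3.62%), 329 higher (2.11%) and 236 lower (1.51%), by edgeR's quasi-likelihood test at a Benjamini-Hochberg adjusted p under 0.05, the rule for every call here. Over 2-fold, 144 rose and 94 fell. Without untreated replicate 1 the number was 429 of 15862 (2.7%), 229 higher (1.44%) and 200 lower (1.26%), and over 2-fold 107 rose and 52 fell. Both fits shared 358 genes, 199 higher and 159 lower, and no gene called in the first changed sign in the second. Untreated replicate 1 was the highest of the 3 untreated libraries in 182 of the 236 genes called lower, and the lowest in 214 of the 329 called higher. Without it and bryostatin replicate 2 together the number called was 1395 (8.85%), 758 higher (4.81%) and 637 lower (4.04%), and 357 genes were called in all 3 fits.

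The 3 libraries of one group lay entirely above those of the other in all 565 called genes. The same held in 1421 genes of all tested in the direction of higher values (9.11%) and in 1446 of lower ones (9.27%), so that a lack of overlap alone says little. The spread for these calls was estimated over the 12 libraries of experiment 2. With only the 6 libraries compared, 9 genes passed: Ccl2, Spp1, Ccl12, Ccl6, Fcgr2b, Mmp3, Ccr1, Cd300lf and Ccl9, all higher. DESeq2 called 1337 genes. The number called was 188 without bryostatin replicate 1 and 265 without bryostatin replicate 3.

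**Figure D2:**
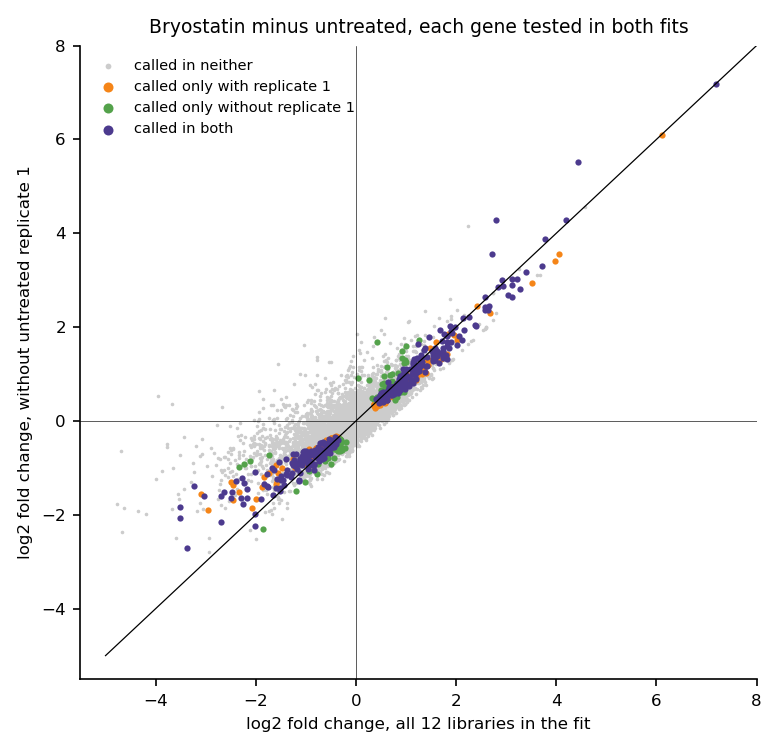
Each point is a gene tested in both fits, with its log2 fold change of bryostatin minus untreated over all 12 libraries (x axis) and without untreated replicate 1 (y axis). The 358 genes called in both lie near the diagonal on the side of higher values, and many genes of lower values have a smaller change without the replicate, as for Bbox1 (-3.52 and then -1.83).

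Each count of list members below stands beside 2.11% of all genes tested called higher and 1.51% called lower. Without untreated replicate 1 these shares were 1.44% and 1.26%. Of 12 measured protein kinase C and D genes, 0 rose and 1 fell. They include Prkci and Prkcz, atypical isoforms that diacylglycerol does not activate. Prkca, the classical alpha isoform, stood at 136, 306 and 324 CPM in untreated glia and at 382, 216 and 372 CPM with bryostatin (log2 fold change 0.34 ± 0.29 SE, adjusted p = 0.58). Its low values are in the 2 libraries that read long genes low. Prkcd, the delta isoform, stood at 56.7, 68.8 and 69.5 CPM and then at 75.6, 79.7 and 73.2 CPM (0.23 ± 0.13, adjusted p = 0.39). Prkce, the epsilon isoform, had a log2 fold change of -0.03 ± 0.18 (adjusted p = 0.95). The member that fell was Prkcq, the theta isoform, at 4.7, 2.98 and 2.79 CPM and then at 1.47, 1.62 and 1.49 CPM (-1.19 ± 0.25, adjusted p = 0.025, and 0.042 without untreated replicate 1). It lost its call without bryostatin replicate 1 or 3 (adjusted p = 0.1 and 0.084).

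Among 23 immediate early genes, which respond to ERK and AP-1 signals within minutes to hours, 0 rose and 2 fell after 24 h. Fos, an AP-1 subunit, stood at 54.4, 51.4 and 44.3 CPM in untreated glia. With bryostatin it stood at 22.7, 29 and 25.5 CPM, below all untreated libraries (-0.96 ± 0.13, adjusted p = 0.0029, and 0.0044 without untreated replicate 1). Its call held when any 1 of the 6 libraries was left out. Egr1, an early zinc finger factor, fell from 51.4, 32.1 and 37 CPM to 23.6, 23.6 and 15.4 CPM (-0.94 ± 0.22, adjusted p = 0.039). That call was lost without untreated replicate 1 or bryostatin replicate 1 or 3, where its adjusted p was 0.081, 0.089 and 0.12. Fosl1, another AP-1 subunit, was not called (0.19 ± 0.3, adjusted p = 0.79).

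Of 22 ERK feedback and output genes 2 rose and 0 fell, and 1 rose without untreated replicate 1. Over all genes tested 2.11% were called higher, and 1.44% without that library. The ERK phosphatase Dusp6 stood at 60.6, 112 and 120 CPM and then at 152, 125 and 136 CPM, with the low value in untreated replicate 1 (0.5 ± 0.2, adjusted p = 0.21). None of 18 NF-kB subunit and feedback genes was called in either fit, such as the inhibitor Nfkbia (-0.33 ± 0.11, adjusted p = 0.13). Of 14 measured inflammatory cytokines and enzymes 0 were called, and 1 rose without untreated replicate 1. The cytokine gene Il1b stood at 2.48, 1.91 and 1.03 CPM and then at 0.87, 1.41 and 1.03 CPM, which overlap (-0.71 ± 0.41, adjusted p = 0.38). Il6 and Nos2 had too few counts to test.

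Most measured chemokines of the CC family, which draw monocytes, rose. Of 9 measured, 6 rose and 0 fell, in both fits, with a median log2 fold change of 2.66 over the 9 against 0 over all genes tested. Ccl2 stood at 2.48, 1.58 and 2.39 CPM in untreated glia and at 31.9, 32.8 and 23.5 CPM with bryostatin. It rose by 3.77 ± 0.28 on the log2 scale (adjusted p = 0.00015), or 3.87 without untreated replicate 1. Ccl12, a close relative that binds the same receptor, stood at 2.8, 2.48 and 2.73 CPM and then at 21, 21.1 and 15.5 CPM, with little spread among untreated libraries. It rose by 2.84 ± 0.16 (adjusted p = 2.3e-05). Ccl7, the third ligand of this receptor, was low, at 1.06, 0.338 and 0.285 CPM and then at 3.97, 5.19 and 2.11 CPM (2.72 ± 0.52, adjusted p = 0.019), and it lost its call without bryostatin replicate 1 (adjusted p = 0.06).

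Ccl6 and Ccl9 bind the receptor Ccr1, and all 3 genes rose. Ccl6 stood at 1.9, 2.87 and 3.02 CPM and then at 21.6, 32.7 and 27.2 CPM (3.39 ± 0.31, adjusted p = 0.00041). Ccl9 stood at 5.01, 7.49 and 8.49 CPM and then at 36.5, 57.1 and 38.9 CPM (2.66 ± 0.29, adjusted p = 0.0011). Ccr1 stood at 5.01, 9.06 and 9.29 CPM and then at 42.2, 51.8 and 50.4 CPM (2.63 ± 0.21, adjusted p = 0.00019). In each of the 3 genes untreated replicate 1 was the lowest library. Without it the log2 fold changes were 3.18, 2.44 and 2.37, and all 3 calls held when any 1 library was left out. Ccl3, another ligand of Ccr1, rose less (1.3 ± 0.21, adjusted p = 0.0075), and Ccl4 (0.83 ± 0.22, adjusted p = 0.061) and Ccl5 (-1.31 ± 0.56, adjusted p = 0.23) were not called. These 3 were chosen after their values were seen, to complete the family.

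The CC genes called lie in 1 cluster on chromosome 11. In the deposited annotation (mm10) it spans 11 protein-coding Ccl genes from base 82035571 to base 83664683. Of the 8 with enough counts, Ccl2, Ccl7, Ccl12, Ccl9, Ccl6 and Ccl3 rose and none fell. The count filter let in genes low in untreated glia, such as Ccl7, through treated libraries, which favours rises in this count. The other 3 (Ccl11, Ccl8 and Ccl1) had 0 to 1 counts over each group of 3 libraries. Pf4, a platelet chemokine that microglia also make, rose from 13.2, 14.1 and 11.7 CPM to 33.4, 62.7 and 32.3 CPM, highest in bryostatin replicate 2 (1.72 ± 0.25, adjusted p = 0.0043, or 1.33 without that library and untreated replicate 1).

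Cx3cl1, the membrane-bound chemokine whose receptor marks microglia, rose from 59.2, 52 and 49.5 CPM to 91.9, 83.3 and 78.4 CPM (0.66 ± 0.11, adjusted p = 0.0083). Its receptor gene Cx3cr1 was not called (-0.22 ± 0.13, adjusted p = 0.4). Cxcl10, an interferon-induced chemokine that draws T cells, moved the other way. It stood at 10.8, 4.73 and 4.84 CPM in untreated glia and at 1.74, 1.78 and 0.743 CPM with bryostatin (-2.25 ± 0.43, adjusted p = 0.019, and -1.76 with an adjusted p of 0.028 without untreated replicate 1). It lost its call without bryostatin replicate 1 or 3 (adjusted p = 0.059 and 0.064).

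**Figure D3:**
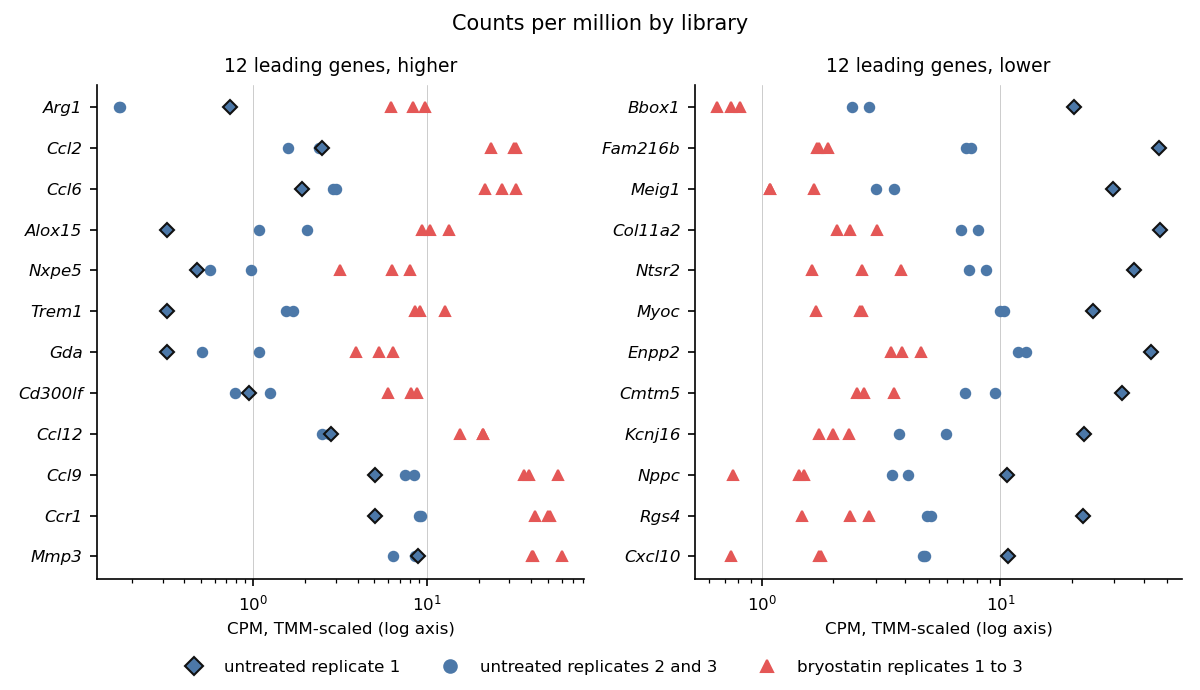
CPM on a log axis in each of the 6 libraries, for the 12 genes with the largest rise and the 12 with the largest fall among protein-coding genes called in both fits at 5 CPM or more. Bryostatin libraries (triangles) lie clear of untreated ones in every gene, and untreated replicate 1 (outlined diamond) is far above the other untreated libraries in several genes that fell, such as Bbox1 at 20.3 CPM against 2.81 and 2.39 CPM.

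Matrix metalloproteinases cut collagens, proteoglycans and one another's inactive precursors. Of 15 measured, 4 rose and 0 fell, and without untreated replicate 1 there were 3 that rose and 1 that fell. Mmp3, stromelysin 1, stood at 8.92, 6.36 and 8.54 CPM in untreated glia and at 41.2, 60.3 and 40.5 CPM with bryostatin. It rose by 2.57 ± 0.22 (adjusted p = 0.00022), or 2.64 without untreated replicate 1. Mmp10, stromelysin 2, had 0 counts in the 3 untreated libraries together and 13, 21 and 17 counts with bryostatin. Set against 3 counts over the untreated group it was at least 17-fold higher (adjusted p = 0.0011), a bound that covers counting error only. Mmp12, the macrophage elastase, rose from 6.33, 4.84 and 4.33 CPM to 11.8, 11 and 16.9 CPM (1.35 ± 0.24, adjusted p = 0.015). Mmp13, a collagenase, was called at 1.7 ± 0.4 (adjusted p = 0.042), but not when any 1 library other than untreated replicate 3 was left out (adjusted p = 0.08 to 0.11).

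These 4 genes are neighbours on chromosome 9. The cluster holds 9 protein-coding Mmp genes from base 7272514 to base 7699585 (mm10, deposited annotation), and the 4 with enough counts to test are the 4 that were called. A gene could pass the count filter through treated libraries alone, as Mmp10 did. The match of tested and called genes is thus partly set by the filter. Of those too low to test, Mmp8, the neutrophil collagenase, and Mmp27 had 0 counts in untreated glia and 17 counts each over the 3 bryostatin libraries. Mmp1b had 3 and 5 counts, Mmp20 had 0 and 2, and Mmp7 had 0 in both groups. Mmp14, a membrane-bound member outside the cluster, chosen here with its values known, stood at 222, 230 and 218 CPM and then at 240, 272 and 212 CPM (0.12 ± 0.11, adjusted p = 0.64).

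Mmp13 was not called in both fits, and its promoter is not described here. The promoters of the other 3 of these genes hold an AP-1 motif close to the start. They are shown with that of Plaur, the receptor of urokinase, which rose, and of Gja1 and Cxcl10, which fell and hold the motif too. Each stretch is from RefSeq (GRCm38.p6, the assembly that mm10 stands for), read 5′ to 3′ on the gene's strand, with TGACTCA or its reverse complement TGAGTCA in capitals and its first base counted back from the start of the transcript.
Mmp3, chr9:7445746-7445812, plus strand, motif at -46: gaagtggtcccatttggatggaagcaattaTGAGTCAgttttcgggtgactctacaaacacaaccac
Mmp10, chr9:7502249-7502315, plus strand, motif at -63: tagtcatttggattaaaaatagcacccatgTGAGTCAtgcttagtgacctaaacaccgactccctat
Mmp12, chr9:7347300-7347366, plus strand, motif at -44 of the second of 2 listed starts: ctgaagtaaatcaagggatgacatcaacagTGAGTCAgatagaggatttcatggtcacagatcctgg
Plaur, chr7:24462384-24462450, plus strand, motif at -69: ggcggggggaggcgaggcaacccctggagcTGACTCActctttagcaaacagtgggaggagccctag
Gja1, chr10:56377251-56377299, plus strand, motif at -19: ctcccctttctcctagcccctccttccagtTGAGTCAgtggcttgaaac
Cxcl10, chr5:92348927-92348993, minus strand, motif at -74: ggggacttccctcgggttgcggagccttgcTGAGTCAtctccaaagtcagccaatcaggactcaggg

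Across the genes the motif was uncommon. Within 250 bases before the start, on either strand, it was found in 483 of 11501 tested genes with a listed promoter (4.2%). Among genes called higher in both fits it was in 9 of 146 (6.16%), and among those called lower in both in 6 of 120 (5%). Within 150 bases the shares were 2.76% of all, 6.16% of the higher and 3.33% of the lower genes. For comparison, the E-box CACGTG, which is its own reverse complement, was in 9.53% of all, 5.48% of the higher and 10% of the lower genes within 250 bases. A match is a description of the letters, not of binding, and the members shown were picked for holding it.

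Around the same proteolytic system, the plasminogen activators moved in both directions. Plaur stood at 7.86, 8.84 and 10.8 CPM and then at 32.7, 37.3 and 26.1 CPM (1.81 ± 0.21, adjusted p = 0.0018), and its ligand Plau, urokinase, rose from 15.3, 21.6 and 21.1 CPM to 52.4, 42.6 and 42.6 CPM (1.25 ± 0.15, adjusted p = 0.0018). Plat, the tissue-type activator, fell from 128, 83.5 and 87.5 CPM to 52.4, 51.8 and 53.4 CPM (-0.92 ± 0.15, adjusted p = 0.0073). All 3 calls held in both fits and with any 1 library left out, and they are the 3 called among 11 measured genes of the system. Adam8, a membrane protease of myeloid cells, rose from 19.7, 63.9 and 65.3 CPM to 205, 201 and 193 CPM, with untreated replicate 1 the lowest library (2.01 ± 0.34, adjusted p = 0.01, or 1.61 without it).

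Spp1, osteopontin, a secreted ligand of integrins and CD44, was the gene with the largest gain in CPM among those named. It stood at 319, 389 and 435 CPM in untreated glia and at 2140, 2520 and 2120 CPM with bryostatin. The rise was 2.57 ± 0.18 (adjusted p = 0.00012), and 2.43 without untreated replicate 1. Itgam, the CD11b chain of complement receptor 3, rose from 31.2, 33.2 and 38.5 CPM to 69.8, 103 and 76 CPM (1.27 ± 0.14, adjusted p = 0.0014). Over 22 integrins and matrix ligands 3 rose and 1 fell, and over 29 collagens and other matrix genes 0 rose and 2 fell. The share over all genes tested was 2.11% higher and 1.51% lower, so 1 or 2 calls in a list this short say little.

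Some receptors of activated myeloid cells rose as well. Of 32 pattern receptors, lectins and TREM genes 10 rose, 0 fell and 22 were not called, with a median of 0.65. Without untreated replicate 1 there were 6 that rose (median 0.44). Over all genes tested 2.11% were called higher, and 1.44% without that library. Members low in untreated glia, such as Trem1, could pass the count filter through treated libraries, which favours rises in this count. Trem1, an amplifier of innate signals, stood at 0.317, 1.69 and 1.54 CPM and then at 8.6, 12.8 and 9.2 CPM (3.11 ± 0.4, adjusted p = 0.0026). Cd300lf, a lipid receptor, rose from 0.95, 0.788 and 1.25 CPM to 5.98, 8.76 and 8.12 CPM (2.93 ± 0.24, adjusted p = 0.00022). Fcgr2b, the inhibitory receptor for immunoglobulin G, stood at 22.3, 22.1 and 25 CPM and then at 83.1, 74.8 and 103 CPM (1.91 ± 0.18, adjusted p = 0.00041). Msr1, a scavenger receptor, rose from 23.7, 62.8 and 74.7 CPM to 243, 209 and 243 CPM (2.11 ± 0.33, or 1.73 without untreated replicate 1). These 4 calls held with any 1 library left out.

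Of 25 genes of alternative activation, the macrophage state linked to IL-4, 6 rose and 0 fell, against 2.11% called higher over all genes. Members low in untreated glia, such as Arg1, passed the count filter through treated libraries. Arg1, arginase 1, stood at 0.739, 0.169 and 0.171 CPM in untreated glia and at 9.79, 8.32 and 6.23 CPM with bryostatin (4.44 ± 0.37, adjusted p = 0.00022, or 5.51 without untreated replicate 1, which held most of the untreated counts). Alox15, a lipoxygenase, rose from 0.317, 2.03 and 1.08 CPM to 10.4, 13.5 and 9.43 CPM (3.28 ± 0.43, adjusted p = 0.0026). Cd200r1, an inhibitory receptor of myeloid cells, rose by 1.53 ± 0.19 (adjusted p = 0.0022). Mrc1, the mannose receptor, was called at 1.28 ± 0.25 (adjusted p = 0.021). It lost the call without untreated replicate 1 or 2 or bryostatin replicate 1 or 3 (adjusted p = 0.054 to 0.074).

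Disease-associated microglia are a state described around amyloid and myelin debris. Beside 2.11% called higher over all genes tested, 5 of its 25 genes rose and 0 fell in both fits. They include Ccl6 and Spp1, given above, and Gpnmb, a lysosomal glycoprotein, which went from 135, 200 and 223 CPM to 482, 538 and 594 CPM (1.53 ± 0.2, adjusted p = 0.0028). Lpl, lipoprotein lipase, rose from 114, 174 and 177 CPM to 288, 262 and 298 CPM (0.87 ± 0.15, adjusted p = 0.013). Ctsc, the protease that activates serine proteases of granules, rose from 89, 102 and 115 CPM to 233, 257 and 253 CPM (1.28 ± 0.13, adjusted p = 6e-04), the 1 called of 16 lysosomal cathepsin genes.

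General markers of myeloid cells were called higher more often than all genes tested (2.11%), and those of resting microglia were mostly not called. Of 22 pan-myeloid genes 5 rose, 0 fell and 17 were not called (3 rose without untreated replicate 1), with a median log2 fold change of 0.48. In 13 of the 22 all bryostatin libraries lay above all untreated ones, against 9.11% of all genes, and in 0 below. Their summed level was 4010 to 4140 CPM in untreated glia and 5310 to 6330 CPM with bryostatin. Without Lyz2, lysozyme, the most abundant of them, it was 2040 to 2220 CPM and then 2370 to 3210 CPM. Of 24 homeostatic microglia genes Itgam rose, 23 were not called and the median was 0.1, and the difference between these lists was not tested. P2ry12, the purine receptor of resting microglia, stood at 19.4, 16.7 and 21.2 CPM and then at 16.2, 14.4 and 18.2 CPM (-0.23 ± 0.18, adjusted p = 0.53). Tmem119 (-0.18 ± 0.23, adjusted p = 0.72) and Trem2 (0.14 ± 0.24, adjusted p = 0.8) were not called. The part of the number or share of myeloid cells in the rises of myeloid genes was not tested.

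Of 19 measured enzymes of lipid mediators 6 rose, 1 fell and 12 were not called, and 5 rose and 1 fell without untreated replicate 1. Besides Alox15, Tbxas1, thromboxane synthase, rose from 29.9, 35 and 31.3 CPM to 65.7, 83.2 and 77.6 CPM (1.24 ± 0.15, adjusted p = 0.0018). Ptgs1, the constitutive cyclooxygenase, rose from 33, 38.7 and 46.9 CPM to 63.4, 84.7 and 71.8 CPM (0.89 ± 0.15, adjusted p = 0.011). The calls of Tbxas1 and Ptgs1 held with any 1 library left out. Alox5, which makes leukotrienes, rose by 1.38 ± 0.27 (adjusted p = 0.02) and lost its call without bryostatin replicate 1 or 3 (adjusted p = 0.057 and 0.059). Pla2g7, which breaks down platelet-activating factor, fell from 528, 333 and 279 CPM to 155, 213 and 159 CPM (-1.11 ± 0.21, adjusted p = 0.017), and lost its call without the same libraries (adjusted p = 0.078 and 0.066).

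Genes of S phase and mitosis were called higher or not at all. Of 36 measured, 19 rose, 0 fell and 17 were not called, with a median log2 fold change of 0.62 against 0 over all genes. Without untreated replicate 1 there were 14 that rose (median 0.57), and without it and bryostatin replicate 2 there were 28. Their summed level was 975, 1050 and 1040 CPM in untreated glia and 1570, 1480 and 1460 CPM with bryostatin, so the sums did not overlap. Top2a, which untangles DNA, stood at 61, 88 and 94.7 CPM and then at 166, 119 and 145 CPM (0.82 ± 0.17, adjusted p = 0.023, and 0.039 without untreated replicate 1). Cdc6, which loads the replication helicase, rose from 3.59, 4.5 and 3.7 CPM to 9.03, 7.46 and 7.14 CPM (1 ± 0.19, adjusted p = 0.019). Ube2c, a ubiquitin enzyme of mitosis, rose by 0.85 ± 0.17 (adjusted p = 0.025). Each of these 3 lost its call without bryostatin replicate 1 (adjusted p = 0.095, 0.081 and 0.065), and Top2a also without bryostatin replicate 3 (adjusted p = 0.067). Of 17 D cyclins, cell cycle inhibitors and p53 targets 0 were called, and 1 fell without untreated replicate 1.

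More astrocyte genes fell than rose. Of 29 measured astrocyte identity genes 11 fell, 1 rose and 17 were not called, with a median of -0.59. Without untreated replicate 1, which was rich in astrocyte transcripts, 8 fell and 1 rose and the median was -0.41. The 30 markers summed to 29300 to 49100 CPM in untreated glia and to 19900 to 25300 CPM with bryostatin. Without Gfap, Apoe, Clu and Cpe, 4 abundant members, the sums were 12500, 10500 and 10100 CPM and then 7690, 7940 and 8590 CPM. The member that rose was Aldh1l1, a folate enzyme used as an astrocyte marker, chosen after its values were seen. It stood at 346, 300 and 268 CPM and then at 369, 517 and 443 CPM (0.54 ± 0.13, adjusted p = 0.05 as rounded, and 0.029 without untreated replicate 1). Its call was lost without untreated replicate 2 or 3 or bryostatin replicate 2 or 3 (adjusted p = 0.075 to 0.13).

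Gja1, connexin 43, which joins astrocytes into a network, stood at 557, 356 and 380 CPM in untreated glia and at 188, 186 and 217 CPM with bryostatin. It fell by 1.13 on the log2 scale (SE 0.16, adjusted p = 0.0034), and by 0.92 without untreated replicate 1. Atp1b2, a subunit of the glial sodium pump, fell from 1150, 1090 and 981 CPM to 614, 698 and 681 CPM (-0.69 ± 0.1, adjusted p = 0.0056). Aqp4, the water channel of astrocyte endfeet, stood at 787, 878 and 941 CPM and then at 474, 313 and 565 CPM (-0.95 ± 0.18, adjusted p = 0.018), and without bryostatin replicate 1 its adjusted p was 0.06. Ntsr2, a neurotensin receptor of astrocytes, stood at 36.3, 8.72 and 7.41 CPM and then at 1.63, 3.84 and 2.63 CPM. Its log2 fold change was -2.69 ± 0.59 (adjusted p = 0.031) and -1.6 without untreated replicate 1 (adjusted p = 0.032), and its adjusted p was 0.13 and 0.11 without bryostatin replicate 1 or 3.

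A pair of glutamate handling genes fell with calls that some fits lost. Slc1a2, the glutamate transporter GLT-1, stood at 224, 151 and 185 CPM and then at 111, 63.8 and 120 CPM, with the lowest value in bryostatin replicate 2 and the highest in untreated replicate 1, both of which read long genes low (-0.92 ± 0.21, adjusted p = 0.038). It lost its call without untreated replicate 1 or 3 or bryostatin replicate 1 (adjusted p = 0.052 to 0.089). Glul, glutamine synthetase, fell from 1220, 1100 and 1090 CPM to 844, 784 and 892 CPM (-0.44 ± 0.1, adjusted p = 0.03), and its adjusted p was 0.056 to 0.11 without any 1 bryostatin library. Among 26 channels, transporters and junction genes 5 fell and 0 rose. Adra2a, an inhibitory adrenergic receptor, had the firmest call of these, from 57, 40.3 and 38.6 CPM to 11.2, 15.4 and 18.3 CPM (-1.6 ± 0.2, adjusted p = 0.0021, or -1.42 without untreated replicate 1).

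Of 7 glial intermediate filament genes 1 rose, 1 fell and 5 were not called, and without untreated replicate 1 there was 1 that rose and 0 that fell. Synm, synemin, rose from 51.7, 48.6 and 50.6 CPM to 120, 84.9 and 125 CPM (1.13 ± 0.14, adjusted p = 0.0026), and its call held with any 1 library left out. Gfap, the best known marker of reactive astrocytes, was the most abundant gene that fell, from 12700, 9900 and 8520 CPM to 5410, 7560 and 6610 CPM (-0.67 ± 0.16, adjusted p = 0.042). Its call was lost without untreated replicate 1 or 2 or bryostatin replicate 1 or 3 (adjusted p = 0.053 to 0.15). Of 11 genes of the reactive state tied to neuroinflammation 2 rose and 0 fell, among them Fkbp5, a chaperone partner of steroid receptors (1.14 ± 0.14, adjusted p = 0.002). The median of these 11 was -0.13. The state tied to ischemia had 1 that rose and 0 that fell of 11 (median 0.23). Reactive genes shared by injuries had 0 that rose and 2 that fell of 13, and 2 and 1 without untreated replicate 1. The share over all genes tested was 2.11% higher and 1.51% lower. Of 19 genes of complement and its regulators 4 rose, 3 fell and 12 were not called, and without untreated replicate 1 there were 2 each way. C3, complement factor 3, which is used as a marker of the neuroinflammatory state, fell from 621, 393 and 404 CPM to 165, 216 and 239 CPM (-1.19 ± 0.25, adjusted p = 0.029). That call was lost without untreated replicate 1 or any bryostatin library (adjusted p = 0.054 to 0.12). C1s1, a protease of the classical complement pathway, fell in every fit that left out 1 library (-0.91 ± 0.11, adjusted p = 0.0017).

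Secreted growth factors had 1 called gene, where 3.62% of all genes tested were called. Ptn, pleiotrophin, stood at 513, 321 and 311 CPM and then at 160, 205 and 162 CPM (-1.12 ± 0.18, adjusted p = 0.0075), the 1 gene called of 26 growth factors. Of 24 genes of the TGF-beta, BMP and activin pathways 4 fell and 0 rose in both fits. Bmp6, a ligand, fell from 285, 179 and 187 CPM to 91.8, 107 and 121 CPM (-1.03 ± 0.17, adjusted p = 0.01), with an adjusted p of 0.051 without bryostatin replicate 1. Id4, a target of BMP signals, fell from 372, 261 and 244 CPM to 142, 131 and 160 CPM (-1.02 ± 0.17, adjusted p = 0.0089). Nog, noggin, a BMP antagonist, fell from 40.2, 41.2 and 34.6 CPM to 22, 22.8 and 23.7 CPM (-0.76 ± 0.12, adjusted p = 0.007). The ligand, the target and the antagonist moved the same way, and the calls of Ptn, Id4 and Nog held with any 1 library left out.

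Oligodendrocyte lists were short, beside a share of 3.62% called over all genes tested, or 2.7% without untreated replicate 1. Pdgfra had a log2 fold change of -2.78 ± 0.94 (adjusted p = 0.13) with that library and -0.08 without it (adjusted p = 0.96), and Sox10 had too few counts to test. Of 12 precursor genes 1 fell, and 0 were called without untreated replicate 1. Of 8 genes of oligodendrocytes and myelin 1 fell and 7 were not called, with untreated replicate 1 and without it.

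Some genes of lipid synthesis fell and none of those listed rose. Of 25 genes of sterol synthesis and uptake 4 fell, 0 rose and 21 were not called, 11 fell without untreated replicate 1, and 17 fell without it and bryostatin replicate 2. Their median was -0.34, and -0.52 without untreated replicate 1. Hmgcs1, which makes the substrate of the rate-limiting step, stood at 292, 344 and 344 CPM and then at 188, 175 and 184 CPM (-0.84 ± 0.09, adjusted p = 0.0011). Dhcr7, the last enzyme on one route to cholesterol, fell from 37.4, 37.8 and 34.9 CPM to 21.8, 25.8 and 24.2 CPM (-0.62 ± 0.11, adjusted p = 0.013, and 0.058 without bryostatin replicate 1).

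Of 15 fatty acid synthesis genes 4 fell, 0 rose and 11 were not called, and 4 fell and 0 rose without untreated replicate 1. Acsl3, which activates long-chain fatty acids, stood at 108, 110 and 115 CPM and then at 76.8, 62.8 and 72 CPM (-0.65 ± 0.09, adjusted p = 0.0046). Scd2, the main desaturase of glia, fell from 2020, 2100 and 2080 CPM to 1420, 1210 and 1590 CPM (-0.56 ± 0.1, adjusted p = 0.017, and 0.062 without bryostatin replicate 1). Slc2a1, the glucose transporter GLUT1, fell from 122, 131 and 125 CPM to 79, 87.2 and 80 CPM (-0.62 ± 0.08, adjusted p = 0.0024). It belongs to another list, of glycolysis and hypoxia, where 1 fell, 1 rose and 24 were not called of 26 measured entries (median 0.13). Prdx6, a peroxide-reducing enzyme, fell from 2290, 2610 and 2170 CPM to 1240, 1670 and 1320 CPM (-0.74 ± 0.13, adjusted p = 0.015), and lost its call without bryostatin replicate 1 or 3 (adjusted p = 0.064 and 0.059). Its list, of NRF2 and glutathione genes, had 2 that fell, 0 that rose and 22 not called of 24. The calls of Acsl3, Hmgcs1 and Slc2a1 held with any 1 library left out.

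**Figure D4:**
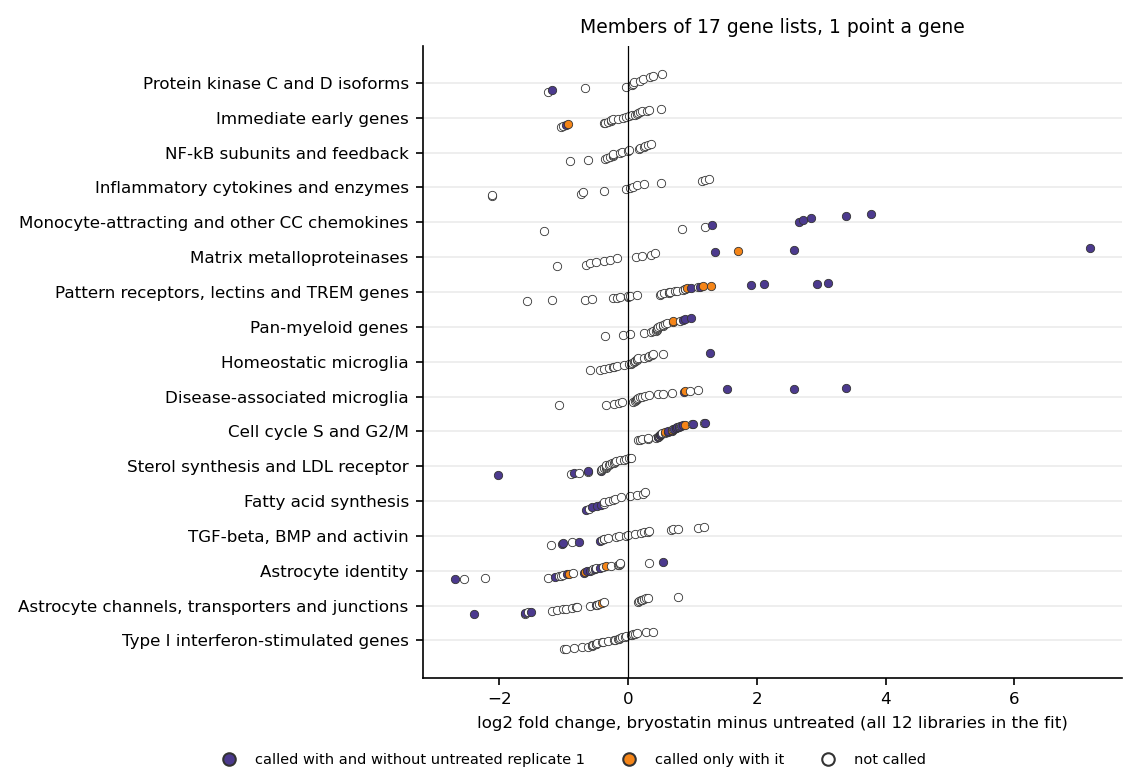
Log2 fold change of bryostatin minus untreated (x axis) for the tested members of 17 gene lists (rows), 1 point a gene, filled by whether it was called. CC chemokines, pattern receptors and cell cycle genes have called members only to the right, astrocyte channels and the lists of sterol and fatty acid synthesis only to the left, and NF-kB and interferon-stimulated genes have none.

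Several signalling genes outside these groups rose, from lists that also held genes that fell or were not called. Neuropeptide and secretory granule genes had 4 that rose, 2 that fell and 7 not called of 13 (median -0.39). Without untreated replicate 1 there were 3 that rose and 0 that fell. G-protein regulators had 2 that rose and 1 that fell of 14 in both fits. Retinoic acid genes had 2 that rose and 0 that fell of 17, and 1 each way without that library. Vgf, a granule protein that yields neuropeptides, stood at 54.8, 39.6 and 48.3 CPM and then at 125, 230 and 128 CPM, highest in bryostatin replicate 2 (1.76 ± 0.25, adjusted p = 0.0035). Npy, neuropeptide Y, rose from 1.79, 1.58 and 1.99 CPM to 5.22, 7.13 and 6.63 CPM (1.82 ± 0.27, adjusted p = 0.0056). Rgs8, which shortens G-protein signals, rose from 2.16, 5.18 and 6.38 CPM to 32.4, 17.1 and 22.3 CPM (2.39 ± 0.34, adjusted p = 0.004). Aldh1a3, which makes retinoic acid, rose from 1.16, 0.844 and 1.6 CPM to 6.53, 4.05 and 6.69 CPM (2.26 ± 0.3, adjusted p = 0.0027). All 4 calls held with any 1 library left out. In the other direction Rgs4, a relative of Rgs8, fell from 22.2, 4.95 and 5.13 CPM to 1.47, 2.81 and 2.34 CPM (-2.28 ± 0.54, adjusted p = 0.043), and lost its call without any 1 bryostatin library (adjusted p = 0.065 to 0.16).

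Many of the largest falls had their size from untreated replicate 1. Bbox1, the last enzyme of carnitine synthesis, stood at 20.3, 2.81 and 2.39 CPM and then at 0.653, 0.811 and 0.743 CPM. Its log2 fold change was -3.52 ± 0.76 (adjusted p = 0.03), and -1.83 without untreated replicate 1 (adjusted p = 0.011). Col11a2, a fibrillar collagen chain, stood at 46.5, 8.05 and 6.84 CPM and then at 2.07, 3.03 and 2.34 CPM (-3.04 ± 0.63, or -1.6 without untreated replicate 1). Both lost their calls without any 1 bryostatin library (adjusted p = 0.053 to 0.12). Myoc, myocilin, a secreted glycoprotein of astrocytes, was less uneven, at 24.4, 10.4 and 9.97 CPM and then at 1.69, 2.59 and 2.63 CPM (-2.69 ± 0.4, adjusted p = 0.0056). It fell by 2.16 without untreated replicate 1 (adjusted p = 0.0033), and its call held with any 1 library left out.

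Other lists had no calls with all libraries. Over all genes tested 3.62% were called, so 0 calls in a short list, here or above, says little. None of 29 type I interferon-stimulated genes (median -0.22, and 0.01 without untreated replicate 1), 24 genes of the ATF4 and unfolded protein response, 14 heat shock chaperones, 36 nuclear genes of oxidative phosphorylation or 49 cytosolic ribosomal proteins was called in either fit. The same held for 21 Notch and Wnt targets and 10 genes of insulin-like growth factor binding. Of the markers of other cell types, 0 were called of 8 endothelial, 9 pericyte, 14 fibroblast and meningeal and 12 ependymal genes, and of 10 neuronal genes 0 were called with all libraries and 1 rose without untreated replicate 1. Of 16 genes of blood cells 12 had 0 counts in all 6 libraries and none reached 1 CPM. In a simulation with the spread of these counts the test found 16% of genes changed 1.5-fold and 60% of those changed 2-fold. It found 76% of those changed 3-fold and 84% of those changed 4-fold, so that small changes could be missed. The simulated libraries had neither an outlying replicate nor slopes by gene length, so these shares may not hold for the real ones.

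The same question was asked with IL-4 present, in 6 libraries that share none with the comparison above but entered the same fit. Bryostatin added to IL-4 changed 644 genes (4.13%), 422 higher (2.7%) and 222 lower (1.42%). Of the 199 genes called higher for bryostatin alone in both fits, 154 were called higher there too, which is 77.4% of these 199 and 36.5% of the 422. Of the 159 lower ones, 108 were called lower, which is 67.9% of these and 48.6% of the 222. No gene was called in the opposite direction, and all 358 had the same sign. Ccl2 rose from 5.4, 7.77 and 11.2 CPM with IL-4 to 66.9, 90.2 and 80.1 CPM with both (3.28, adjusted p = 1e-04). Spp1 rose by 2.7 there, Mmp3 by 2.77 and Ccl12 by 3.75, and Gja1 fell by 0.9 and Hmgcs1 by 1.02. Cell cycle genes had 23 members called higher and 0 lower of 36.

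Arg1 was raised further by the pair, at 494, 563 and 658 CPM with IL-4 and 1850, 2140 and 2130 CPM with both. Its log2 fold change was 1.83 there (adjusted p = 0.0024) against 4.44 in glia without IL-4. The difference between those effects was tested for every gene, and edgeR called 0 (327 at an unadjusted p under 0.05), DESeq2 4 and the edgeR fit of all 27 libraries 5. For Arg1 that difference was -2.61 ± 0.45 (adjusted p = 0.86), and -3.68 without untreated replicate 1 (adjusted p = 0.053). Gda, guanine deaminase, rose for bryostatin alone from 0.317, 0.507 and 1.08 CPM to 3.92, 5.3 and 6.4 CPM (3.03 ± 0.37) and was not called with IL-4 (0.61, adjusted p = 0.3), a difference that was not called either.

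In glia given LPS, from the other experiment, bryostatin changed 1108 genes of 16073 tested (6.89%), 538 higher (3.35%) and 570 lower (3.55%). With LPS and IFN-gamma it changed 543 (3.38%), 289 higher (1.8%) and 254 lower (1.58%). Of the 199 higher genes, 195 could be tested there. With LPS 48 of them were called higher (24.6%) and 7 lower, and with LPS and IFN-gamma 25 were called higher (12.8%) and 2 lower. Of the 159 lower genes, 60 were called lower with LPS (37.7%) and 38 with LPS and IFN-gamma (23.9%), and 2 were called higher in each. These effects were fitted in separate experiments and their difference was not tested. Called alike in all 4 settings, among the 565 genes, were 25 higher and 31 lower ones. Spp1 was among them (2 with LPS and 1.57 with LPS and IFN-gamma), as were Mmp3 (0.59 and 0.83), Npy (2.58 and 2.42), Aldh1a3 (1.78 and 2.02) and, on the lower side, Myoc (-2.78 and -2.1), Adra2a (-1.41 and -1.11) and Hr, a nuclear corepressor (-0.32 and -0.35).

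The CC chemokines were not among them. Ccl2 had a log2 fold change of -0.17 with LPS (adjusted p = 0.61) and 0.2 with LPS and IFN-gamma (adjusted p = 0.59), and Ccl6 had -0.16 and 0. Ccl12 had 0.23 and 0.25, and neither value was called. A few genes were called in opposite directions. Csf2rb, the shared receptor chain for GM-CSF, rose for bryostatin alone from 19.1, 23.4 and 25.6 CPM to 57.1, 75 and 75.9 CPM (1.61 ± 0.2, adjusted p = 0.0025) and fell with LPS (-0.4, adjusted p = 0.011). Sla, an adaptor that dampens antigen receptor signals, rose alone by 1.01 ± 0.14 (adjusted p = 0.0035) and fell with LPS (-0.98, adjusted p = 0.00058) and with LPS and IFN-gamma (-1.37, adjusted p = 0.00043). Fgl2, a prothrombinase of macrophages, rose alone by 1.57 ± 0.26 (adjusted p = 0.0089) and fell in both other settings (-0.47 and -0.58).

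**Figure D5:**
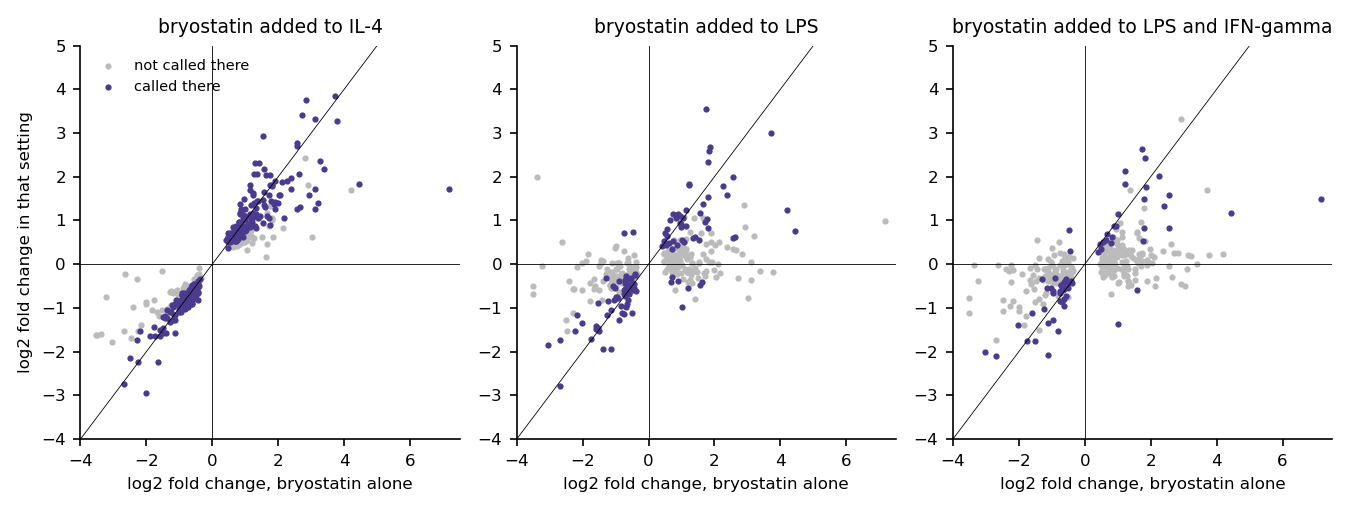
The 358 genes called for bryostatin alone in both fits, with their log2 fold change alone (x axis) against that of bryostatin added to IL-4, to LPS and to LPS with IFN-gamma (y axes), filled where the gene was called in that setting. With IL-4 all points keep their sign, while with LPS many genes that rose alone lie near 0 and 7 are called lower.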

How the data were processed

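Mixed glia RNA was measured as unstranded libraries of polyadenylated RNA, per the labels' protocols. The members and gene lists were chosen with earlier results of these data known. The submitters' processing notes list fastp, STAR, featureCounts and the build mm10; tool versions are not given in the sources used here. For 54532 genes the authors deposited raw counts with gene names, positions and lengths, which were used, and FPKM values, which were not. No strand was kept, so overlapping antisense genes and near-identical copies cannot be told apart.

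The counts were read with data.table (version 1.17.8) and fitted by edgeR 4.0.16 and limma 3.58.1 under R 4.3.3, with TMM factors, a low-count filter by group (filterByExpr), a robust quasi-likelihood fit with its F test, and Benjamini-Hochberg adjustment across every gene tested. The 12 libraries of experiment 2 entered one fit and the 15 of experiment 1 another, with no covariate. Comparisons numbered 4 of bryostatin and 1 of the difference between its effects with and without IL-4. Values are TMM-scaled CPM per library and log2 fold changes with their SE, from n = 3 libraries per group, or fewer where said. Sums over all markers of a cell type are in CPM of library totals. Sums without abundant members, and those of the cell cycle, are in TMM-scaled CPM of tested genes. No 2 of the 27 libraries held identical counts. The code was tested on simulated counts drawn independently for each library, with no outlying library and no slope by gene length. Of 50 genes changed at each fold, 8 to 42 were called, and 5 unchanged genes of the 15604 run were called falsely. Those rates cannot stand for the real libraries, which have both traits.

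Genes were named by a rule: the 12 largest changes each way called with and without untreated replicate 1 at 5 CPM or more, up to 5 called members of each list, the 6 most abundant called each way, a fixed set of 27 (24 tested), and up to 6 each that were alike or opposite across settings. Some were left out for length or are not reported here, and genes outside it are marked. Alternatives were DESeq2 1.42.0 and its size factors, no filter, other sets of libraries, a replicate block, a correction for gene length (lowess of the deviation on length, span 0.3) and leaving out libraries. The gene-length correction without untreated replicate 1 and the alternatives with LPS were chosen after seeing the data.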

Additional observations from a re-analysis of the deposited data

How the results depend on the processing

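The number of genes called for bryostatin alone, 565, was 1337 with DESeq2, 9 with only the 6 libraries compared, 1548 with all 27 libraries in 1 fit, 1395 without untreated replicate 1 and bryostatin replicate 2, 984 with a gene-length correction and 859 with that correction and without untreated replicate 1. Leaving out each library in turn gave 188 (without bryostatin replicate 1) to 824 (without untreated replicate 3). DESeq2 called 563 of the 565, and the fit of 27 libraries 555. For bryostatin with IL-4 (644) the numbers were 1213 with DESeq2, 1325 with all 27 libraries, 3169 without the 2 libraries named, 1048 with the gene-length correction, and 172 to 1355 with 1 library left out, the highest without untreated replicate 1 and all of 172 to 371 without a library of its own groups. The difference between these effects had 4 calls with DESeq2, 5 with all 27 libraries, 1 without the 2 libraries, and 0 with any 1 library left out. Bryostatin with LPS had 588 to 689 calls with 1 library left out; with LPS and IFN-gamma it had 242 to 434, the highest without LPS and IFN-gamma replicate 1, and 879 with DESeq2. The number of distinct list genes called was 140, then 125 without untreated replicate 1 and 257 without both libraries. With 6 libraries fewer samples set the spread; the other causes were not tested.

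For untreated and bryostatin libraries of the same number, the correlation of deviations from the group means was -0.504 for pair 1, -0.289 for pair 2 and 0.346 for pair 3. It was 0.524 for untreated replicate 1 with bryostatin replicate 2, which both read long genes low, and -0.54 for untreated replicate 3 with bryostatin replicate 2. Such values cannot show whether replicates were paired. With a replicate block 422 genes were called for bryostatin alone (390 of the 565) and 564 with IL-4.

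Of 78 named genes called, 52 kept the call with any 1 library left out and 26 lost it at least once. None of the 78 changed sign in any setting, and of the named genes the 5 that did were not called. Fosl1 had -0.16 without untreated replicate 1 and bryostatin replicate 2, -0.17 with the gene-length correction and without untreated replicate 1, and -0.16 to 0.48 over the fits that left out 1 library. Pdgfra had 0.09 without the 2 libraries, and -3.29 to -0.08 with 1 left out. Over the same fits Prkce ran from -0.2 to 0.14, Trem2 from -0.14 to 0.35 and Tmem119 from -0.44 to 0.03. Depth limits the low genes: 3 counts are 0.16 to 0.173 CPM, and 2 called genes had 0 counts in untreated glia.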
